A study of Mus musculus with 6 samples.

Results

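In total, 10 genes that mark classical monocytes, *Ly6c2*, *F13a1*, *Fn1*, *Ms4a6c*, *Ms4a4c*, *Ms4a6d*, *Lyz2*, *Cd14*, *Mpeg1* and *Emilin2*, were followed in RNA-seq data from the bone marrow of *MxCDX2* and control mice. The 10 genes were listed by name as genes of Ly6C-high monocytes, with no measured value in the rule, and each symbol matched 1 of the 39179 gene identifiers in the count tables. Earlier results of these data were known when the genes were chosen. All 10 passed the filter on low counts and were among the 15980 genes tested.

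The *MxCDX2* mice (n = 3, genotype *RsCDX2::Mx1Cre*) carried the human *CDX2* coding sequence in *Rosa26* behind a stop sequence flanked by loxP sites, together with a Cre transgene under the promoter of *Mx1*, a gene induced by interferon, so that recombination was not restricted to monocytes or to blood cells. The control group held 3 littermates of different genotypes. Control 1 carried *RsCDX2* alone, control 2 carried *Mx1Cre* alone, and control 3 was wild type and had neither allele. All 6 mice, controls included, were 3 months old when they received 3 intraperitoneal injections of the interferon inducer poly(I:C) at 10 µg/g, and the marrow was taken 6 weeks after. The sample labels give the injections as daily, whereas the methods space them by 2 days. Each genotype of the control group is thus represented by a single mouse, so that an effect of one allele cannot be told apart from variation between mice. The p-values set the group difference against the spread between mice within groups, which in the controls also holds differences of genotype.

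Classical monocytes are the Ly6C-high monocytes of the mouse. They arise in the bone marrow from granulocyte-monocyte progenitors, leave it through the chemokine receptor *Ccr2*, and mature in tissues into macrophages or in the blood into nonclassical, Ly6C-low monocytes. Their RNA is marked by surface proteins of the Ly6 and Ms4a families, by proteins that attack or sense bacteria, and by secreted proteins of coagulation and extracellular matrix, but several of these genes are shared with other cells: *Lyz2* with neutrophils and macrophages, *F13a1* with megakaryocytes, and *Fn1* with stromal cells.

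Reads on genes numbered between 38646101 and 49899650 per mouse. Reads on mouse *Cdx2*, a gene to which transcripts of the human transgene may be assigned, were 4, 0 and 0 in controls 1, 2 and 3 and 152, 155 and 183 in *MxCDX2* mice 1, 2 and 3. The wild-type control stood apart from the other controls before any comparison: the summed level of 9 megakaryocyte and platelet markers was 9.63 times the mean of the other 2 controls in this mouse, that of 14 macrophage markers 2.34 times, and that of 8 granulocyte-monocyte progenitor markers 0.288 times. The fold change of each of the 10 genes is therefore given with and without this mouse. For other genes whose fold change is printed, the value without it is added where the call changed or the value moved by more than 1.5 times.

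Of the 10 genes, 5 were upregulated in *MxCDX2* mice, *F13a1*, *Ms4a4c*, *Ms4a6c*, *Ly6c2* and *Mpeg1*, and none was downregulated (absolute log2 fold change above 1 and adjusted p below 0.05, quasi-likelihood test of edgeR, adjusted by Benjamini-Hochberg over all tested genes). By the same rule 4.59% of all tested genes were upregulated and 9.03% downregulated. In 6 genes, the same 5 and *Emilin2*, every *MxCDX2* mouse lay above every control mouse, which was the case for 21.4% of all tested genes, while 20.7% lay below and 42.1% did not overlap in either direction. The median log2 fold change of the 10 genes was 1.08, against 0.00 for all tested genes. With DESeq2 the same 5 genes were upregulated, as were 4.74% of all genes tested with that tool. The other 4, *Lyz2*, *Cd14*, *Fn1* and *Ms4a6d*, had overlapping groups. Without the wild-type control the same 5 genes passed upwards and *Fn1* passed downwards. Of 16179 genes tested in that fit, 924 passed upwards and 1482 downwards. In RNA of a whole marrow, more or fewer cells of a type and more or less RNA per cell cannot be told apart.

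**Figure D1:**
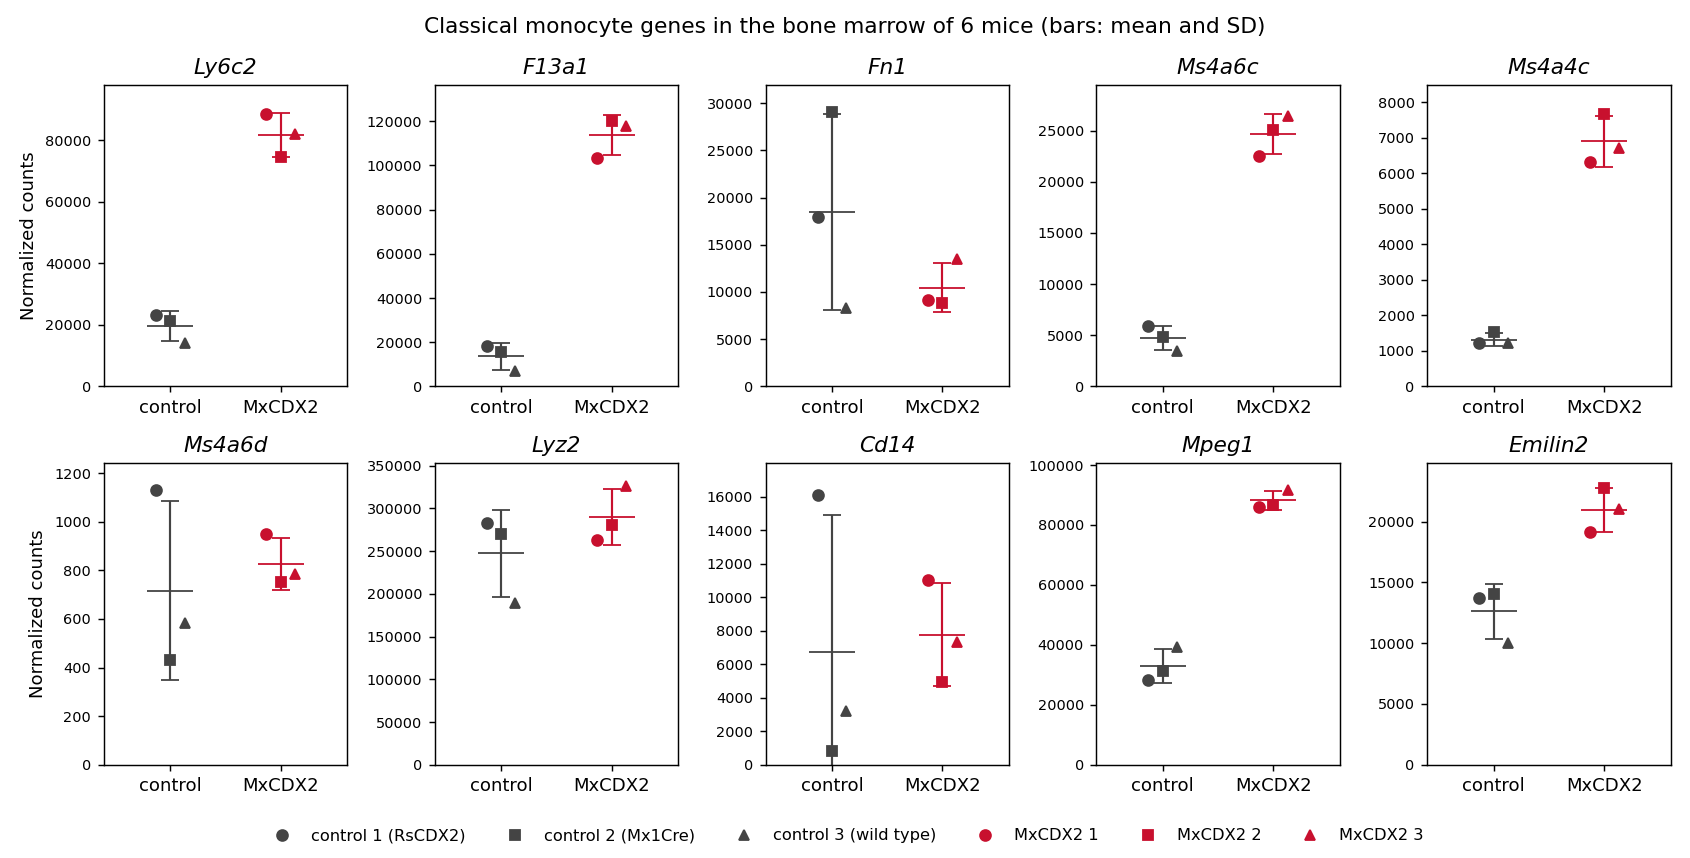
Normalized counts (linear axis from 0) of the 10 classical monocyte genes in each of the 6 mice. Each symbol is 1 mouse, with control mice in grey and *MxCDX2* mice in red. The long horizontal line is the mean and the bar the SD of 3 mice, and the control bar of *Cd14* runs below 0 and is clipped by the axis. The groups are apart in *Ly6c2*, *F13a1*, *Ms4a6c*, *Ms4a4c*, *Mpeg1* and *Emilin2*, and overlap in *Fn1*, *Ms4a6d*, *Lyz2* and *Cd14*.

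*Ly6c2* (ENSMUSG00000022584, minus strand of chromosome 15, 75108158 to 75111970, GRCm38) encodes a small lipid-anchored surface protein, one of the Ly6C antigens by which these monocytes are sorted. Its neighbour *Ly6c1* encodes a near copy, and 387 of the 396 coding bases (97.7%) are the same, with an unbroken identical run of 188 bases. Reads that fall wholly within such a run cannot be assigned to either gene, so counts of the pair are uncertain to that extent. The first 150 coding bases of both genes (GENCODE M21 transcripts), shown because they hold 6 of the differing bases, are printed with the differences in capitals.
Ly6c2: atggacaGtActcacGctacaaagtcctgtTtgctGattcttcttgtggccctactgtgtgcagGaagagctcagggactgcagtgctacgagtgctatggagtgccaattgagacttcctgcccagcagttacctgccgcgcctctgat
Ly6c1: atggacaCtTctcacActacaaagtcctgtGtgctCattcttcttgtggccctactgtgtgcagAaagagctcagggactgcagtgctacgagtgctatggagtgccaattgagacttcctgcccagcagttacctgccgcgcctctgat

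The normalized count of *Ly6c2*, that is, the count scaled to the mean effective library size of the 6 mice, was 23370, 21311 and 13971 in controls 1, 2 and 3 and 88459, 74466 and 82067 in *MxCDX2* mice 1, 2 and 3. The lowest *MxCDX2* mouse had 3.19 times the count of the highest control, and the wild-type mouse was the lowest of the 6. The means were 19550.5 ± 4941 and 81664 ± 7005 (SD, n = 3 each), and the log2 fold change was 2.06 (standard error, SE, 0.23; adjusted p = 0.00268, edgeR's quasi-likelihood test). It was 1.89 without the wild-type control, and *Ly6c2* passed whichever of the 6 mice was left out. *Ly6c1*, which is also made by lymphocytes and endothelial cells, was upregulated as well but at a far lower level, with 146 ± 23.9 normalized counts in control and 302 ± 43.0 in *MxCDX2* mice (SD, n = 3 each) and a log2 fold change of 1.05 (adjusted p = 0.0234, edgeR). Within each mouse *Ly6c2* took nearly all reads of the pair: 99.29%, 99.44% and 98.93% in the controls and 99.66%, 99.65% and 99.58% in *MxCDX2* mice. The share was higher in every *MxCDX2* mouse (two-sided exact permutation test, p = 0.1, and no smaller p is possible with 3 mice per group).

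Among the other genes of the Ly6 locus the direction was not shared. Of 8 tested genes, *Ly6c1* was upregulated and 3 were downregulated, and the median log2 fold change was -0.87. The 3 were *Ly6d*, a marker of early B cells (-2.04, adjusted p = 0.0332), *Ly6g*, which marks neutrophils (-1.88, adjusted p = 0.00166), and *Ly6k* (-1.67, adjusted p = 0.0458, edgeR for each). *Ly6g* had 4914 ± 93.8 normalized counts in control and 1337 ± 299.9 in *MxCDX2* mice (SD, n = 3 each). Without the wild-type control the median was -0.086, 2 of the 8 passed downwards, and *Ly6k* no longer did (-1.42, adjusted p = 0.0838, edgeR).

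The Ms4a genes encode small proteins that span the membrane several times and lie in 1 cluster on chromosome 19. The 3 monocyte genes among them did not move together. *Ms4a6c* (plus strand, 11469366 to 11482192) had 5899, 4833 and 3472 normalized counts in controls 1, 2 and 3 and 22518, 25025 and 26437 in *MxCDX2* mice 1, 2 and 3. The groups were far apart, and the log2 fold change was 2.38 (SE 0.21, adjusted p = 0.00163, edgeR), or 2.22 without the wild-type control. *Ms4a4c* (plus strand, 11404770 to 11427246) had 1214, 1521 and 1231 against 6313, 7686 and 6706 normalized counts. Its log2 fold change was also 2.38, with the smallest standard error of the 10 genes (0.14, adjusted p = 0.00077, edgeR), and was 2.35 without the wild-type mouse, which did not stand apart from the other controls for this gene. Both genes passed whichever of the 6 mice was left out.

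*Ms4a6d* (minus strand, 11586604 to 11604849) had 1131, 432 and 584 normalized counts in controls 1, 2 and 3 and 949, 750 and 783 in *MxCDX2* mice. The highest and the lowest of the 6 mice were both controls, and the *MxCDX2* mice lay between them. The log2 fold change was 0.21 (SE 0.35, adjusted p = 0.713, edgeR, two-sided exact permutation p = 0.7). It was 0.10 without the wild-type control, turned to -0.051 without control 2, and reached 0.72 without control 1. The coding sequences of *Ms4a6c* and *Ms4a6d* are 77.1% identical with no identical run above 44 bases, so that fewer reads are shared than in the *Ly6c* pair. Of all reads on *Ms4a6c* and *Ms4a6d*, the share on *Ms4a6d* was 16.1%, 8.20% and 14.4% in the controls and 4.04%, 2.91% and 2.88% in *MxCDX2* mice. This ratio within a mouse does not depend on scaling between libraries. It was lower in every *MxCDX2* mouse, and the means differed by -9.62 percentage points (two-sided exact permutation test, p = 0.1, the lowest possible).

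The cluster holds 16 Ms4a genes within 678.6 kb, of which 11 were tested: 4 were upregulated, 2 downregulated and 5 passed in neither direction. *Ms4a6b*, the next Ms4a gene after *Ms4a6c* and 85.0% identical to it in coding sequence, had 2092 ± 334 normalized counts in control and 8310.5 ± 827 in *MxCDX2* mice (SD, n = 3 each), and the log2 fold change was 1.99 (adjusted p = 0.00136, edgeR). *Ms4a3*, a gene of granulocyte-monocyte progenitors, was upregulated by 2.25 on the log2 scale (adjusted p = 0.0304), and its controls spread from 1794 normalized counts in the wild-type mouse to 9783 in control 1. The genes that fell were *Ms4a1*, which encodes the B cell antigen CD20 (-2.41, adjusted p = 0.0196), and *Ms4a2*, a subunit of the IgE receptor of mast cells and basophils (-1.06, adjusted p = 0.0392). *Ms4a4b*, between *Ms4a4c* and *Ms4a6c* on the same strand and 91.8% identical to *Ms4a4c* in coding sequence, is best known from T cells, and had a log2 fold change of 0.30 (SE 0.31, adjusted p = 0.544), or 0.78 without the wild-type control, which had the highest count (adjusted p = 0.0117, below the fold threshold). Upregulated genes and genes that did not pass were thus interspersed along the cluster.

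**Figure D2:**
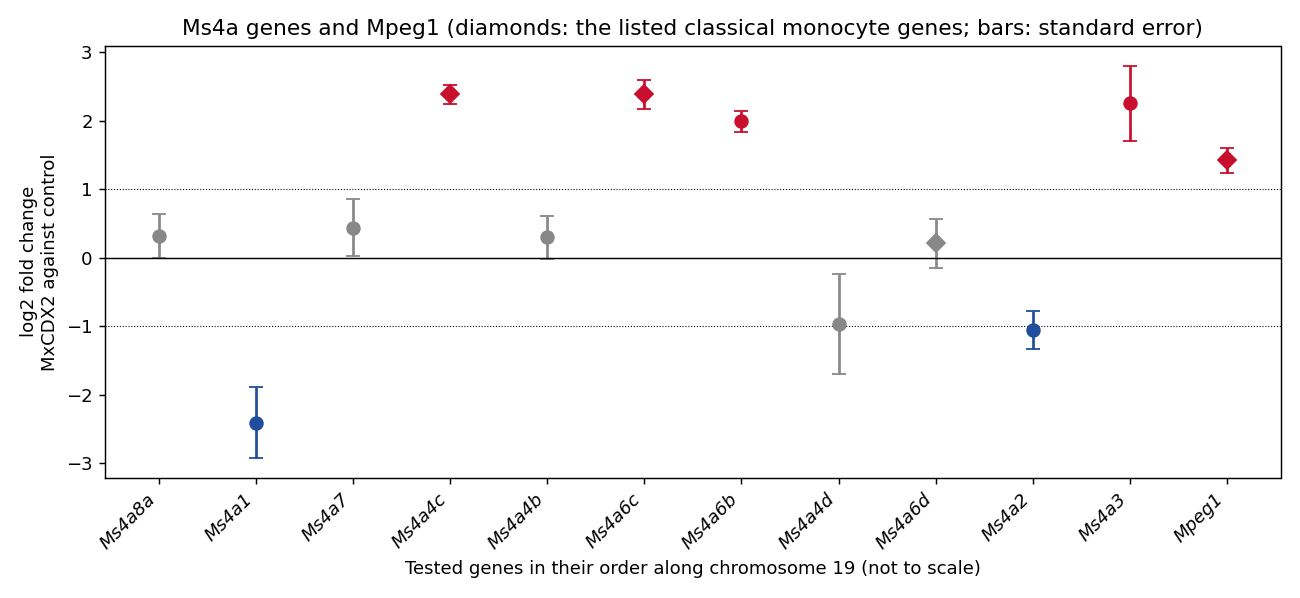
Log2 fold change of *MxCDX2* against control mice (3 each; vertical axis, bars are the standard error) of the 11 tested Ms4a genes and *Mpeg1* in their order along chromosome 19 (horizontal axis, not to scale). Red is upregulated, blue downregulated and grey neither, dotted lines mark a log2 fold change of 1 in either direction, and diamonds are the 4 genes of the classical monocyte list. *Ms4a4c*, *Ms4a6c* and *Ms4a6b* stand near 2, with *Ms4a4b* near 0 between the first and the second of them, and *Ms4a6d* is also near 0.

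*Lyz2* (minus strand of chromosome 10, 117277331 to 117282321) encodes lysozyme M, which cleaves the cell wall of bacteria, and was among the 10 most abundant genes of the marrow, with 0.419% to 0.750% of all reads on genes. It had 282592, 269483 and 189486 normalized counts in controls 1, 2 and 3 and 263334, 280717 and 325993 in *MxCDX2* mice. The lowest value was again that of the wild-type mouse, and control 1 exceeded *MxCDX2* mice 1 and 2. The log2 fold change was 0.23 (SE 0.27, adjusted p = 0.589, edgeR, two-sided exact permutation p = 0.5) and stayed between 0.09, without the wild-type control, and 0.35 when each mouse was left out. Lysozyme is made by neutrophils too, and of 13 mature neutrophil markers 9 were downregulated in the same mice, with a summed level of 2168287 to 3376872 normalized counts in control and 933913 to 1271964 in *MxCDX2* mice. The part of neutrophil RNA in the level of *Lyz2* was not tested. The second lysozyme gene, *Lyz1*, with 95.1% of coding bases in common, took few of the reads of the pair, of which *Lyz2* had at least 99.87% in every mouse. The log2 fold change of *Lyz1* was -1.17 (adjusted p = 0.0657, edgeR). It was lower in every *MxCDX2* mouse than in every control and passed downwards with DESeq2 (adjusted p = 0.0115).

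*Mpeg1* (plus strand of chromosome 19, 12460779 to 12465283) lies 819.9 kb beyond the last Ms4a gene and encodes perforin-2, a protein that forms pores in bacteria taken up by phagocytes. Its normalized counts were 28272, 31189 and 39283 in controls 1, 2 and 3 and 86166, 86688 and 91685 in *MxCDX2* mice. Here the wild-type mouse was the highest of the controls, unlike for *Ly6c2* and *F13a1*, and the *MxCDX2* mice differed little among themselves (coefficient of variation 3.46%). The log2 fold change was 1.42 (SE 0.18, adjusted p = 0.00366, edgeR) and 1.59 without the wild-type control. When the null was a log2 fold change of 1, *Mpeg1* no longer passed (adjusted p = 0.106).

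*Cd14*, the receptor that hands bacterial lipopolysaccharide to the Toll-like receptor encoded by *Tlr4*, was the most variable of the 10 genes. It had 16091, 834 and 3184 normalized counts in controls 1, 2 and 3, a 19.3-fold range, and 11011, 4914 and 7350 in *MxCDX2* mice 1, 2 and 3. Controls 1 and 2, which held the highest and the lowest value, differ in genotype and are 1 mouse each. The coefficient of variation was 123% in control and 39.6% in *MxCDX2* mice, and the log2 fold change of 0.21 (SE 0.94, adjusted p = 0.897, edgeR, two-sided exact permutation p = 0.9) moved from -0.31 to 1.96 when each mouse was left out, with -0.10 without the wild-type control. No direction can be given for *Cd14* from these mice. Across the 6 mice its log2 normalized counts followed those of *Ms4a6d* (Pearson r = 0.99), the other gene for which control 1 was the highest and control 2 the lowest mouse. Of 8 listed genes of the lipopolysaccharide receptor, its homologue CD180 and their partners and adaptors, 2 were upregulated and none was downregulated. The 2 were *Ly86*, which encodes the MD-1 partner of CD180 (1.65, adjusted p = 0.00389), and the adaptor *Ticam2* (1.64, adjusted p = 0.00467, edgeR). The receptor genes *Tlr4* (-0.29, adjusted p = 0.451) and *Ly96* (0.20, adjusted p = 0.689, edgeR) passed in neither direction. The median log2 fold change of the 8 was 0.70. Without the wild-type control the log2 fold change of *Ly96* was 0.52 (adjusted p = 0.192, edgeR), and 3 of the 8 genes passed upwards. The gene added was *Cd180*, with 0.995 for all mice (adjusted p = 0.147) and 1.52 without this control (adjusted p = 0.0341, edgeR).

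*F13a1* (minus strand of chromosome 13, 36867178 to 37050244) encodes the catalytic subunit of coagulation factor XIII, a transglutaminase that cross-links fibrin. It had the largest fold change of the 10 genes, with 18304, 15708 and 6910 normalized counts in controls 1, 2 and 3 and 103480, 120068 and 117944 in *MxCDX2* mice. The lowest *MxCDX2* mouse had 5.65 times the count of the highest control. The means were 13641 ± 5972 and 113831 ± 9027 (SD, n = 3 each), and the log2 fold change was 3.06 (SE 0.38, adjusted p = 0.00345, edgeR), 2.76 without the wild-type control, and between 2.76 and 3.35 when each mouse was left out. *F13a1* is also transcribed in megakaryocytes. Lower in every *MxCDX2* mouse than in every control were 20.7% of all tested genes and all 9 megakaryocyte markers, none of which stood at 0. Their summed level was 28477 to 324682 normalized counts in control and 12530.0 to 16739 in *MxCDX2* mice, and the control with the highest level, the wild-type mouse, had the lowest *F13a1* count of the 6. The part of megakaryocyte RNA in the level of *F13a1* was not tested.

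The other transglutaminase genes did not share one direction. *Tgm3* and *Tgm1* were upregulated (log2 fold changes of 3.78 and 1.41, adjusted p = 0.00329 and 0.0383), from 144 ± 48.1 and 409 ± 204 normalized counts in control mice (SD, n = 3 each), whereas *Tgm2*, the tissue transglutaminase of macrophages and endothelium, was downregulated (-1.80, adjusted p = 0.0465, edgeR).

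*Fn1* (minus strand of chromosome 1, 71585520 to 71653200) encodes fibronectin, a matrix protein to which cells bind through integrins. It was the only one of the 10 genes with a negative log2 fold change. Its normalized counts were 17891, 29053 and 8317 in controls 1, 2 and 3 and 9140, 8798 and 13455 in *MxCDX2* mice. The wild-type mouse was the lowest of the 6, and the other 2 controls lay above all *MxCDX2* mice. With all mice the log2 fold change was -0.82 (SE 0.43, adjusted p = 0.226, edgeR, two-sided exact permutation p = 0.4). Without the wild-type control it was -1.15 (adjusted p = 0.0299, edgeR) and *Fn1* passed, while without control 2, the highest mouse, it was -0.32 (adjusted p = 0.589, edgeR). The size of the difference and its call thus depend on which control is left out. Stromal and endothelial markers, of cells that also make fibronectin, were downregulated in 2 of 11 cases and in 0 without the wild-type control, no marker was at 0, and their summed level was 19385 to 65974 normalized counts in control and 13212 to 23366 in *MxCDX2* mice. The part of these cells in the level of *Fn1* was not tested. Among 6 subunits of integrins that bind fibronectin, *Itga5*, the chain of the main fibronectin receptor, was upregulated (1.13, adjusted p = 0.00375, edgeR). None passed downwards with edgeR. Every *MxCDX2* mouse lay above every control for 3 of the 6, and for 21.4% of all tested genes. *Itgb3* was lower in every *MxCDX2* mouse, with the largest absolute log2 fold change of the 6 (-1.99, adjusted p = 0.105, edgeR). It passed downwards with DESeq2 (adjusted p = 0.0131), and its log2 fold change was -0.50 without the wild-type control.

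*Emilin2* (minus strand of chromosome 17, 71252172 to 71311978) encodes a glycoprotein of the elastic fibre matrix. It had 13746, 14063 and 10010.3 normalized counts in controls 1, 2 and 3 and 19103, 22721 and 21005 in *MxCDX2* mice. All *MxCDX2* mice lay above all controls (two-sided exact permutation test, p = 0.1, the lowest possible). The log2 fold change of 0.73 (SE 0.16, adjusted p = 0.023, edgeR) did not reach the threshold on the fold change but met the one on the p-value, and at that p-value alone 9.91% of all tested genes were higher in *MxCDX2* mice and 21.7% differed in either direction. The log2 fold change was 0.61 without the wild-type control, and the adjusted p ranged from 0.0158 to 0.0842 when each mouse was left out. *Gm26561*, which overlaps it on the opposite strand, had at most 85 reads in any mouse. *Emilin1*, the nearest relative of *Emilin2*, also had every *MxCDX2* mouse above every control and a log2 fold change of 0.91 (adjusted p = 0.0398), and it passed without the wild-type control (1.27, adjusted p = 0.00216, edgeR). The related *Mmrn1* of platelets and *Mmrn2* of endothelium were downregulated (-3.72 and -1.64, adjusted p = 0.0352 and 0.0479, edgeR). *Mmrn1* had 1419.7, 975 and 9704 normalized counts in controls 1, 2 and 3, and its log2 fold change was -1.95 without the wild-type control, where *Mmrn2* no longer passed (-1.21, adjusted p = 0.0848).

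Levels of different genes were compared per length, as TPM, computed from the counts and the exons of protein-coding transcripts and scaled to the same total in each mouse. In control mice the order was *Lyz2* (8081 ± 1445 TPM), *Ly6c2* (968 ± 216), *Mpeg1* (329.6 ± 69.6), *Cd14* (169.8 ± 202), *F13a1* (146 ± 59.9), *Emilin2* (122 ± 20.1), *Ms4a6c* (110.3 ± 23.9), *Fn1* (93.8 ± 54.3), *Ms4a4c* (32.7 ± 5.19) and *Ms4a6d* (19.8 ± 9.15; SD, n = 3 each). Neighbours from *Mpeg1* down to *Fn1*, and *Ms4a4c* with *Ms4a6d*, overlapped between mice and have no order beyond their spread. In *MxCDX2* mice *Lyz2* (12085 ± 1611 TPM) and *Ly6c2* (5140.3 ± 234) were again the highest, but *F13a1* (1561 ± 186) now stood above *Mpeg1* (1115 ± 67.5), and *Ms4a6c* (735 ± 83.6) above *Emilin2* (259 ± 33.1), *Cd14* (256 ± 90.5) and *Ms4a4c* (216 ± 30.9), with *Fn1* (67.6 ± 17.3) and *Ms4a6d* (29.4 ± 2.51) last. *Emilin2*, *Cd14* and *Ms4a4c* overlapped, and all other neighbours were apart in every mouse. The mean level of *Lyz2* was 8.35 times that of *Ly6c2* in control mice and 2.35 times in *MxCDX2* mice.

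Over the 6 mice the log2 normalized counts of *Ly6c2* correlated with those of *F13a1* and *Ms4a6c* (Pearson r = 0.99 for both) and least with those of *Fn1* (r = -0.35). These are 6 points in 2 groups, so a difference between the groups alone gives a high value. Of 11972 genes that reached 100 normalized counts on average, those outside the list whose pattern was most like *Ly6c2* were *Nrg2*, *Farsa* and *Ldhb*. *Nrg2*, which encodes a neuregulin, had 258, 206 and 121 normalized counts in controls 1, 2 and 3 and 1292, 1073 and 1294 in *MxCDX2* mice (r = 0.999). *Ldhb*, a subunit of lactate dehydrogenase, was upregulated by 2.06 on the log2 scale (adjusted p = 0.00174), whereas *Farsa*, a subunit of a tRNA synthetase, had a log2 fold change of only 0.28 (adjusted p = 0.054, edgeR).

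A further 20 genes of classical monocytes were all tested, and their median log2 fold change was 0.60. Of these, 7 were upregulated, 1 was downregulated and 12 passed in neither direction. The largest rise was that of *Ccr2*, the receptor through which these cells leave the marrow, with 8383, 7245 and 6125 normalized counts in controls 1, 2 and 3 and 30522, 70375 and 45378 in *MxCDX2* mice, and the log2 fold change was 2.75 (SE 0.33, adjusted p = 0.00312, edgeR). *Csf1r*, the receptor for macrophage colony-stimulating factor, had a log2 fold change of 2.08 (adjusted p = 0.00196), and the log2 fold changes of the other upregulated genes lay between 1.15 and 1.83. The gene that fell was *Chil3*, a chitinase-like protein made by neutrophil precursors as well as monocytes. It had 207296, 130304 and 66335 normalized counts in controls 1, 2 and 3 and 25599.7, 12940.4 and 19932 in *MxCDX2* mice, and the log2 fold change was -2.79 (SE 0.47, adjusted p = 0.0092, edgeR). Without the wild-type control the counts were the same, 7 upwards and 1 downwards, and the median was 0.96.

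**Figure D3:**
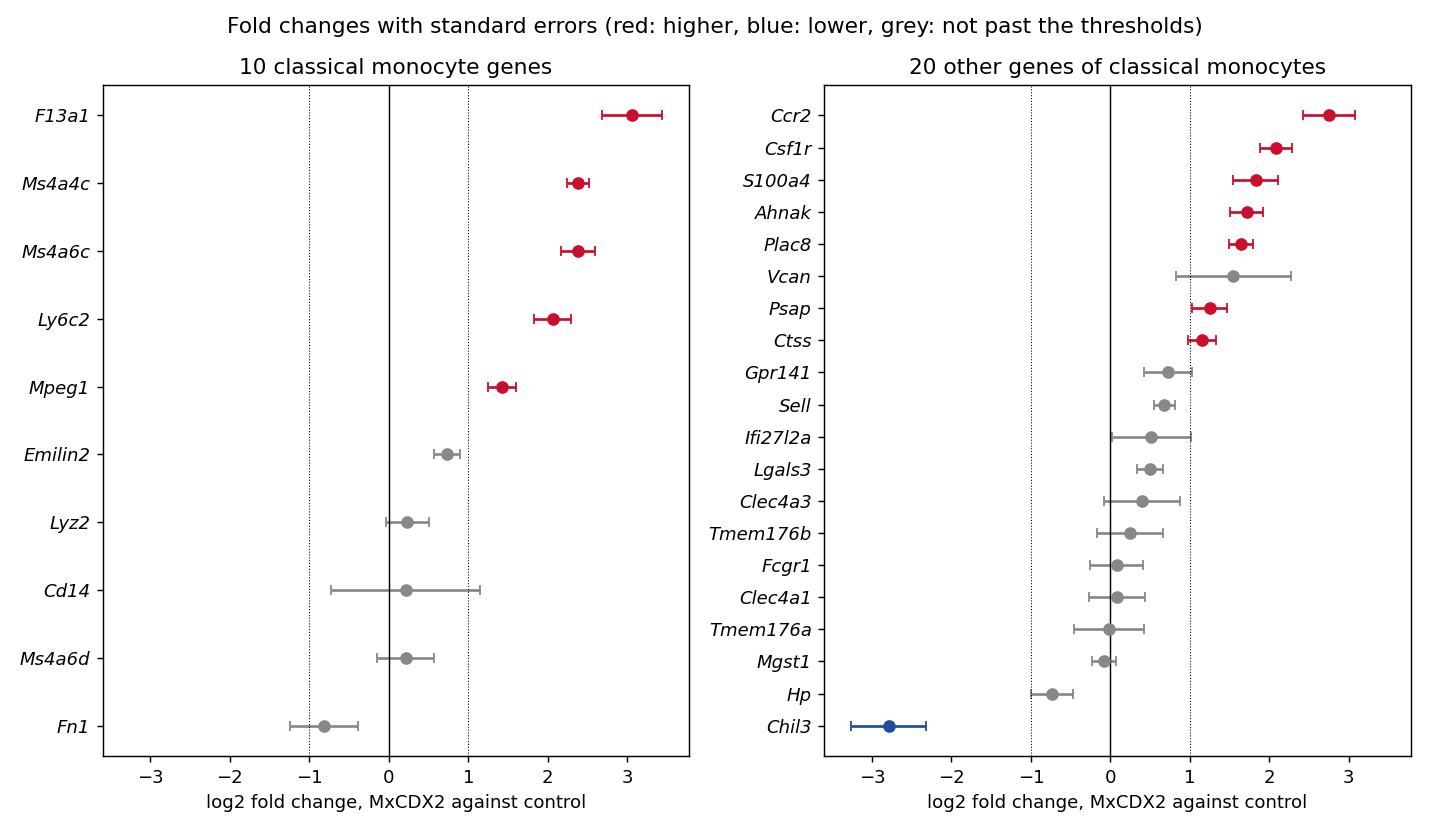
Log2 fold change of *MxCDX2* against control mice (horizontal axis, 3 mice each) with its standard error (bars) for the 10 classical monocyte genes (left) and 20 other genes of these cells (right), each panel in order of the fold change. Red genes were upregulated, blue downregulated, and grey did not pass. *F13a1* leads the left panel at 3.06 and *Ccr2* the right panel at 2.75, while *Fn1* (-0.82, not past the thresholds) and *Chil3* (-2.79) are at the other ends.

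Promoter sequences were read for the 7 of the 10 genes that the RefSeq table (GRCm38.p6) lists, in 10 windows of 250 bases before an annotated start. The windows of 3 upregulated genes, chosen after the sequences were seen because they hold the letters AGGAAGT, a core of the sites bound by ETS factors, on either strand, are printed 5′ to 3′ on the strand of the gene with these letters in capitals. For *Ly6c2* (chr15:75111938-75112187, minus strand) the matches begin 141 and 7 bases before the start, for *F13a1* (chr13:37049214-37049463, minus strand) 36 bases, with no match in the window of its other start, and for *Ms4a6c* (chr19:11469118-11469367, plus strand) 17 bases.
Ly6c2: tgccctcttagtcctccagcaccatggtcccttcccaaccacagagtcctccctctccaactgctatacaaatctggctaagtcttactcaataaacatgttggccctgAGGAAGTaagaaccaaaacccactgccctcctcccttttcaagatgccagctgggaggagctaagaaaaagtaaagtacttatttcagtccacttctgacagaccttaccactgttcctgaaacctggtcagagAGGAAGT
F13a1: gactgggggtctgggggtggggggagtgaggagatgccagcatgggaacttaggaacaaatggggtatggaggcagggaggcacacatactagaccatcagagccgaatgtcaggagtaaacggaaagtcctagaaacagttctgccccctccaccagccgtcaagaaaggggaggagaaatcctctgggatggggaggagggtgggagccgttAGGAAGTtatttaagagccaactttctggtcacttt
Ms4a6c: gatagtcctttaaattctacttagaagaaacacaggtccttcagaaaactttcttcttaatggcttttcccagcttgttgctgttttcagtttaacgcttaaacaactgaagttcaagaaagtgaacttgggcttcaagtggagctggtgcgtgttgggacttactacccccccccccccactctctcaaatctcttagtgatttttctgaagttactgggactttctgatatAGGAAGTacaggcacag

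The letters were present in 4 of the 7 genes, *Ly6c2*, *F13a1*, *Ms4a6c* and *Lyz2*, of which *Lyz2* was not upregulated, and not in *Ms4a4c*, *Mpeg1* or *Emilin2*. Counted by window, 5 of the 10 windows held them, as did 7.69% of 32851 windows of the same length. The windows of *Ly6c2* overlap and hold the same match, so they do not count as independent. No share per gene was computed over all genes. The count of letters was not among the planned comparisons, and the shares were not compared by a test. CATAAA, a core of the sites bound by CDX proteins, does not overlap AGGAAGT in its letters. On either strand it was present in 2 of the 10 windows and in 10.8% of all windows. These were the window of *Lyz2* and 1 window of *Emilin2*, with no match in the window of its other start. Neither gene passed the thresholds. The paper searched a longer stretch of promoter for CDX sites, and bases outside the windows were not read here. A match of letters in 250 bases is a description of the sequence, and binding was not measured in these data.

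Markers of other cells moved with the genotype beside the monocyte genes. The summed level of the 10 genes was 276448 to 408509 normalized counts in control and 610471 to 693424 in *MxCDX2* mice. Of 9 nonclassical monocyte markers none was upregulated and 2 were downregulated, *Treml4* and *Adgre4* (-2.26 and -1.97, adjusted p = 0.00639 and 0.00824, edgeR). In all *MxCDX2* mice 4 of the 9 lay below every control and 2 lay above, against 20.7% and 21.4% of all tested genes. The summed level of the 9 was 36849 to 40879 in control and 41244 to 44913 in *MxCDX2* mice, and in every mouse most of it came from *Spn* and *Itgal*. Of 14 macrophage markers 10 were downregulated, with a median log2 fold change of -2.06 (-1.33 without the wild-type control), among them *Cd5l* (-3.47, adjusted p = 0.0224, and -2.23 without the wild-type control) and the transcription factor gene *Spic* (-3.20, adjusted p = 0.0159), which mark the macrophages that clear red cells. Their summed level was 55937 to 133928 in control and 22911 to 30928 in *MxCDX2* mice. Of 8 granulocyte-monocyte progenitor markers *Ctsg* and *Ms4a3* were upregulated (2.32 and 2.25, adjusted p = 0.0237 and 0.0304, edgeR) and none was downregulated. Every *MxCDX2* mouse lay above every control for 5 of the 8, and for 21.4% of all tested genes. *Kit* lay below every control in all *MxCDX2* mice (-0.69, adjusted p = 0.00459, edgeR) but missed the threshold on the fold change. The summed level of the 8 markers was 54133 to 206533 in control and 238754 to 247886 in *MxCDX2* mice. No marker on these lists was at 0 in any mouse.

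All 12 erythroid markers were downregulated, with a median log2 fold change of -3.52 and a summed level of 1942803 to 2297184 normalized counts in control and 59419 to 227184 in *MxCDX2* mice. The medians were -1.56 over the 13 mature neutrophil markers, led by *Retnlg* and *Mmp8* (-2.41 and -2.12), -3.31 over the 9 megakaryocyte and platelet markers (-1.38 without the wild-type control), of which 3 passed downwards, and -1.76 over 10 B cell markers, of which 6 did. Among T and NK cell markers 2 of 9 were downregulated, among dendritic cell markers 2 of 9, and among markers of eosinophils, basophils and mast cells 3 of 8, and none on these lists was upregulated. Without the wild-type control 7 of the 9 megakaryocyte and platelet markers, 9 of the 10 B cell markers and 8 of the 14 macrophage markers passed downwards, and 1 macrophage and 1 dendritic cell marker passed upwards, as did 3 of the 8 progenitor markers. With the erythroid markers left out of the library sizes and of the test the same count of 5 monocyte genes passed. The part of these shifts in the values of the monocyte genes was not tested.

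**Figure D4:**
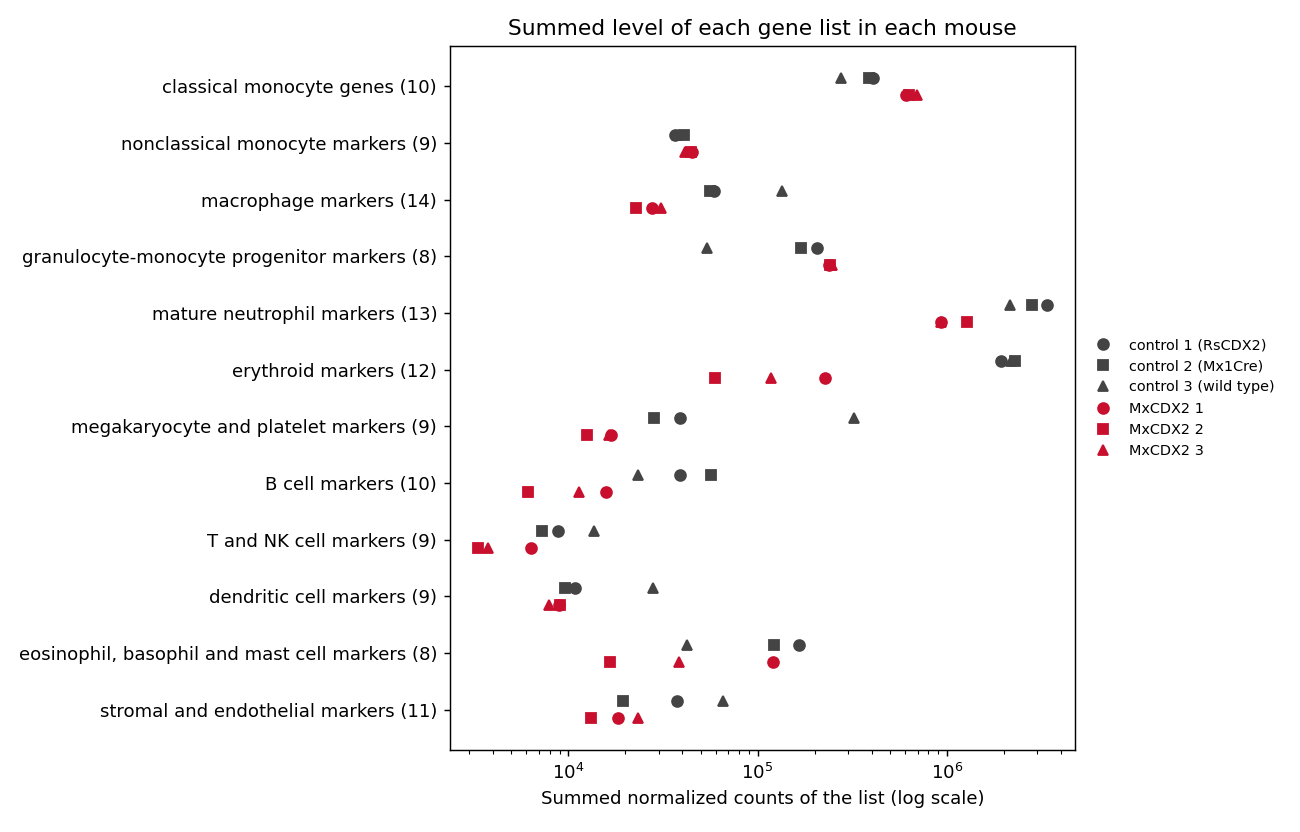
Summed normalized counts (horizontal axis, log scale) of the 10 classical monocyte genes and of 11 lists of cell type markers, with the number of genes in parentheses. Each symbol is 1 mouse, grey for control and red for *MxCDX2*. The classical monocyte genes and the granulocyte-monocyte progenitor markers are higher in all 3 *MxCDX2* mice than in every control. By a narrow gap, and with most of the sum from *Spn* and *Itgal*, the nonclassical monocyte markers are also higher in all 3 *MxCDX2* mice. Macrophage, neutrophil, erythroid, megakaryocyte, B cell, T and NK cell and dendritic cell markers are lower in all 3, and the wild-type control (grey triangle) is highest of all mice for macrophage, megakaryocyte, T and NK cell, dendritic cell and stromal markers.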

How the data were processed

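Bone marrow RNA of 6 mice was sequenced as stranded mRNA libraries. Reads were aligned by the authors to GRCm38 with STAR (version 2.5) and counted per gene with HTSeq (version 0.6.1), tools that the submitters' processing notes name with bcl2fastq (version 2.17.1.14). The authors deposited raw counts, without normalization, 1 table per mouse, and groups came from the sample labels. Rows that name no gene held 12.2% to 17.1% of counted reads and were left out.

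Symbols came from GENCODE M21 (GRCm38), where 37607 of 39179 identifiers were found. The test was that of edgeR 4.0.16 in R 4.3.3 (TMM, default filterByExpr, glmQLFit, glmQLFTest, Benjamini-Hochberg over 15980 genes), and standard errors derive from the F statistic. TPM used the union of exons of protein-coding transcripts. DESeq2 1.42.0 and limma 3.58.1 (voom) were alternatives, with those described under the limits. Exact permutation tests used scipy 1.17.1, other tables Python 3.11.15, pandas 2.3.3 and numpy 2.4.6, and figures matplotlib 3.10.9. Replicate libraries differed by more than sampling noise. The 10 genes and all lists were chosen with earlier results of these data known. Genes named were the 10, their nearest paralogs, the 3 largest changes past the thresholds per related list, at most 2 per marker list, and the 3 genes most like *Ly6c2*. *Ms4a2*, *Tgm1*, *Mmrn2*, *Kit*, *Itgb3*, *Tlr4*, *Ly96*, *Cd180*, *Spn* and *Itgal* fell outside this rule and were named after their values were seen. The files hold no other columns.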

Additional observations from a re-analysis of the deposited data

How the results depend on the processing

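Over the 10 monocyte genes and 16 alternative settings 159 log2 fold changes were computed. Of these, 152 kept their direction and their side of the thresholds. *Lyz2* has no value with the 10 most abundant genes left out, since it is one of them. Those that reversed were all of genes that did not pass: *Ms4a6d* without control 2 (-0.051), and *Cd14* without control 2 (-0.31), without control 3 (-0.10) and without *MxCDX2* mouse 1 (-0.13). The leave-one-out values of *Cd14* ran from -0.31 to 1.96 and those of *Ms4a6d* from -0.051 to 0.72. *Mpeg1* was lost in the test against a log2 fold change of 1 (adjusted p = 0.106), *Emilin2* passed with no threshold on the fold change, and *Fn1* passed downwards without control 3. The number of the 10 genes past the thresholds, 5, became 4 and 6 under the first 2 of these settings and was 5 or 6 when each mouse was left out. Over all genes, 2177 passed, 611 in the test against a log2 fold change of 1, 3471 with no threshold on the fold change, and between 1205 (without *MxCDX2* mouse 3) and 2406 when each mouse was left out. Scaling by total counts only moved the median log2 fold change of all genes from 0.00 to 0.12, and the 5 genes still passed. No paired analysis was possible because the control mice differ in genotype and carry no replicate number within their group. With 3 mice per group the precision is limited by the spread between mice rather than by depth.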
